A study of Macaca mulatta with 22 samples.

Results

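The transcripts of leukaemia inhibitory factor (LIF), interleukin 6 (IL6), their receptor chains LIFR, IL6R and IL6ST, and the feedback inhibitor SOCS3 were followed through the ovulatory interval in individual rhesus macaque (Macaca mulatta) follicles. They were chosen by name: of 7 genes listed for LIF and IL6 signalling, 6 had a probe set with that gene as its only symbol in the array's annotation. These 6 genes were measured by 8 probe sets (groups of short probes read as 1 value), of 14132 genes with such a symbol and 52766 probe sets in all. IL11 was not analysed here. LIF, LIFR, IL6ST and SOCS3 each had 1 probe set, and IL6 and IL6R had 2 each, called the brighter and the dimmer by their mean over all arrays.

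LIF and IL6 belong to the IL6 family of secreted cytokines, which signal through the shared receptor chain gp130, the product of IL6ST. IL6 first binds its own receptor IL6R and the pair then engages gp130, whereas LIF joins gp130 to LIFR. The bound receptors switch on JAK kinases, which phosphorylate the transcription factor STAT3. STAT3 in turn induces SOCS3, which binds gp130 and the JAKs and shuts the signal down. In mouse ovulation, LIF and IL6 have been linked to the expansion of the cumulus, the layer of granulosa cells around the oocyte, and the liver answers IL6 with the acute phase proteins.

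The samples were 22 follicles, 1 per array, from females in controlled ovulation cycles. When serum estradiol reached 100 to 120 pg/ml, the animals received the GnRH antagonist Acyline, which stops the pituitary's own gonadotropin release, together with 30 IU each of recombinant human FSH and LH, on that afternoon and on the next morning. All 5 groups shared this regimen. The 0 h group (6 follicles) had no hCG, the hormone that acts on the LH receptor and starts ovulation, and the other groups had 1000 IU of recombinant hCG and were taken after 12 h (4 follicles), 24 h (4), 36 h before rupture (4, replicates 1 to 4) and 36 h after rupture (4, replicates 5 to 8). Each was the large dominant follicle separated from its ovary and frozen whole, so the RNA came from all its cell types, and fewer cells of a type and less RNA per cell cannot be told apart. Sample titles call all of them ovulatory follicles, while most descriptions speak of the developing corpus luteum. Since each follicle was frozen whole, rises and falls below are differences between follicles. Where no other group is named, a change after rupture sets ruptured against unruptured follicles at 36 h. Whether such a difference arose before or after rupture cannot be told. The labels do not say for each array which animal it came from, and the p-values reflect only how much these follicles varied.

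Levels are given as log2 intensities, where a step of 1 means a doubling, and the comparisons set a probe set only against itself across groups. The arrays were alike in scale, with median intensities of 26.2 to 26.7 and a median log2 of 4.73 over all probe sets. The data give no detection call, so a level below 4.73 is uncertain and so is the size of a change that starts there. The number of arrays limits the precision. All 8 measured markers of granulosa cells and all 6 of theca and stroma had group means above the array median in every group. Differences were tested with limma, adjusted over all 52766 probe sets, and called at an adjusted p under 0.05.

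LIF, IL6ST and SOCS3 had their highest means at 12 h and after rupture. For LIF and IL6ST both groups were called higher than those at 0 h, at 24 h and before rupture, and for SOCS3 they were called higher than at 0 h and before rupture but not than at 24 h (adjusted p = 0.343 for 24 h against 12 h and 0.0717 for ruptured follicles against 24 h). IL6 had its highest mean after rupture, IL6R had its highest means at 24 h and before rupture, and no difference in LIFR was called. Of the 6 genes, 5 differed among the 5 groups in the moderated F test, where 20.1% of all probe sets did. LIF had the lowest adjusted p of the 6 (7.12e-06), followed by IL6ST (0.0003), SOCS3 (0.00548), the brighter IL6 probe set (0.0152) and the brighter IL6R probe set (0.0234). LIFR was not called (0.901). The dimmer IL6 probe set was called too (0.0029) and the dimmer IL6R probe set was not (0.217). The plot of the 8 probe sets by array gives every value.

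**Figure D1:**
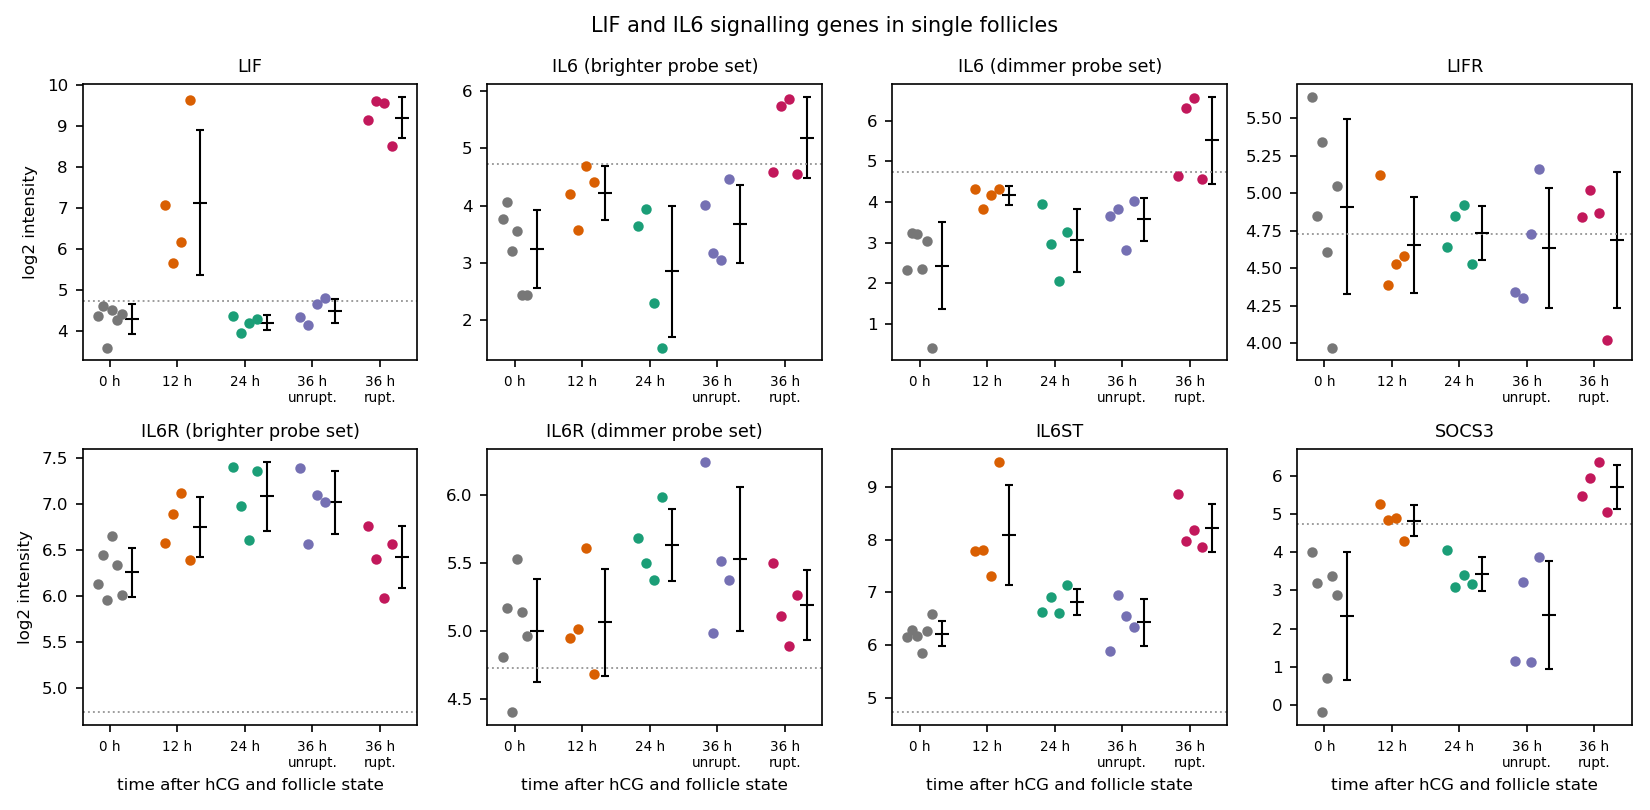
Log2 intensity (y axis) of each LIF and IL6 signalling probe set in the 5 groups (x axis), with 1 point per follicle, the group mean and SD as a bar beside the points, and the median of all probe sets (4.73) as a dotted line. LIF means were 7.13 at 12 h and 9.20 in ruptured follicles and between 4.21 and 4.49 in the other groups, while LIFR means lay between 4.63 and 4.91 throughout.

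LIF was at 3.60 to 4.62 (median 4.39) in the 6 follicles at 0 h and at 7.07, 5.66, 6.17 and 9.63 in the 4 follicles 12 h after hCG. At 24 h it was at 4.37, 3.96, 4.21 and 4.30, at 36 h before rupture at 4.35, 4.16, 4.66 and 4.80, and after rupture at 9.13, 9.60, 9.55 and 8.52. Every 12 h follicle and every ruptured follicle was above every follicle of the other 3 groups. The 0 h, 24 h and unruptured groups overlapped each other, and replicate 4 at 12 h reached the level of the ruptured follicles.

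At 12 h LIF averaged 7.13 ± 1.76 (SD, n = 4), against 4.30 ± 0.36 at 0 h (n = 6), a log2 change of 2.83 ± 0.50 (SE, adjusted p = 0.00143) or 7.12-fold. The mean fell to 4.21 ± 0.18 at 24 h, a change of -2.92 ± 0.55 against 12 h (adjusted p = 0.0033). In ruptured follicles it was 9.20 ± 0.50, against 4.49 ± 0.29 in unruptured follicles of the same hour, a change of 4.71 ± 0.55 (adjusted p = 4.98e-05) or 26.1-fold, with a 95% interval of 3.55 to 5.86. Since the 0 h, 24 h and unruptured levels lay under or about the array median, these folds are uncertain in size. The order of the group means was 24 h, 0 h, unruptured, 12 h and ruptured, lowest first. Of the neighbours in that order, 12 h and unruptured follicles passed the test (adjusted p = 0.0043), and the others did not (adjusted p = 0.961 for 24 h and 0 h and 0.907 for unruptured follicles and 0 h). Ruptured follicles stood 2.07 ± 0.55 above 12 h follicles, with a 95% interval of 0.91 to 3.22 (adjusted p = 0.0654). That difference passed under 4 other settings. Adjusted p was 0.0276 with 16 added to every intensity before the logarithm, which damps changes of dim probe sets. It was 0.0222 without dim probe sets, 0.0348 with array weights and 0.0334 with trend and robust settings. The difference did not pass with only these groups in the fit, quantile normalization or median centring. Nor did it pass with the 3′ minus 5′ difference of control transcripts as a covariate, or with the mean of a gene's probe sets. Without 12 h replicate 4, LIF at 12 h stood 2.00 ± 0.29 above 0 h (adjusted p = 0.000534) and ruptured follicles stood 2.90 ± 0.31 above 12 h (adjusted p = 0.000258). No other left-out array made ruptured follicles pass against 12 h.

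IL6, the other ligand, was dim, with a mean of 3.78 over all arrays for the brighter probe set and 3.63 for the dimmer. The brighter one was at 2.43 to 4.06 (median 3.37) at 0 h, at 4.21, 3.57, 4.69 and 4.41 at 12 h, at 3.65, 3.94, 2.29 and 1.51 at 24 h, at 4.01, 3.17, 3.04 and 4.47 in unruptured follicles and at 4.59, 5.75, 5.86 and 4.56 in ruptured follicles. All 4 ruptured follicles were above all unruptured, 24 h and 0 h follicles, and 12 h replicate 3 was above 2 of them. The group at 12 h overlapped that at 0 h, and only ruptured replicates 6 and 7 lay above the array median.

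The brighter IL6 probe set averaged 5.19 ± 0.71 (SD, n = 4) in ruptured follicles, against 3.67 ± 0.68 in unruptured ones (n = 4), a log2 change of 1.51 ± 0.52 (SE, adjusted p = 0.0754). In the dimmer probe set the comparison passed the test, with 5.52 ± 1.06 in ruptured and 3.58 ± 0.53 in unruptured follicles and a change of 1.94 ± 0.57 (adjusted p = 0.0364). Its 4 ruptured follicles were at 4.64, 6.32, 6.55 and 4.56, and its unruptured follicles at 3.65, 3.83, 2.81 and 4.02, without overlap. Leaving out any of ruptured replicates 6 and 7 or unruptured replicates 1 to 4 ended that call (adjusted p up to 0.118). With 16 added before the logarithm, the brighter probe set passed as well (0.87 ± 0.22, adjusted p = 0.0126).

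At 12 h against 0 h the brighter IL6 probe set had a log2 change of 0.98 ± 0.48 (adjusted p = 0.236) and the dimmer one of 1.73 ± 0.52 (adjusted p = 0.0426). The dimmer one was at 4.32, 3.83, 4.18 and 4.33 at 12 h, all above the 0 h follicles, which ran from 0.42 to 3.24 (median 2.70). This call too was lost without any 1 of 10 arrays (adjusted p up to 0.101), and with 16 added before the logarithm the change was 0.62 ± 0.23 (adjusted p = 0.0926). It was also lost with only these 2 groups in the fit (adjusted p = 0.0889). Against 0 h, ruptured follicles were higher in both probe sets, by 1.95 ± 0.48 (adjusted p = 0.00776) and 3.09 ± 0.52 (adjusted p = 0.000422), and no left-out array ended either call. The means of the brighter probe set had the same order as those of LIF, but no neighbours in it passed the test (adjusted p = 0.774, 0.726, 0.608 and 0.415). The dimmer probe set had 0 h lowest, then 24 h, unruptured, 12 h and ruptured, and no neighbours passed (adjusted p = 0.636, 0.936, 0.618 and 0.27).

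IL6ST, the gp130 chain, was at 5.85 to 6.60 (median 6.22) at 0 h and at 7.79, 7.80, 7.31 and 9.47 at 12 h. At 24 h it was at 6.63, 6.91, 6.62 and 7.14, in unruptured follicles at 5.89, 6.96, 6.56 and 6.34, and in ruptured follicles at 8.87, 7.97, 8.19 and 7.86. As with LIF, all 12 h and ruptured follicles were above all others, and 12 h replicate 4 was the highest of all 22. All these levels were above the array median.

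Averages of IL6ST were 8.09 ± 0.95 (SD, n = 4) at 12 h and 6.22 ± 0.24 at 0 h (n = 6), a log2 change of 1.87 ± 0.32 (SE, adjusted p = 0.00106) or 3.66-fold. At 24 h it averaged 6.82 ± 0.25, which was -1.27 ± 0.35 against 12 h (adjusted p = 0.0341). That fall no longer passed the test without 12 h replicate 4 (-0.81 ± 0.26, adjusted p = 0.0872), 12 h replicate 1 (adjusted p = 0.0514) or 24 h replicates 1, 2 or 3 (adjusted p = 0.0927, 0.0663 and 0.0873). Ruptured follicles averaged 8.22 ± 0.45 and unruptured follicles 6.44 ± 0.44, a change of 1.79 ± 0.35 (adjusted p = 0.00303) or 3.45-fold. Ruptured and 12 h follicles differed by 0.13 (adjusted p = 0.919), and the order of means was 0 h, unruptured, 24 h, 12 h and ruptured, of which neighbours only 12 h and 24 h follicles passed the test.

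LIFR, the chain that LIF itself binds, stayed near the array median. Its 0 h follicles ran from 3.97 to 5.64 (median 4.95), and its group means were 4.91 ± 0.58 (SD, n = 6) at 0 h, 4.65 ± 0.32 at 12 h, 4.74 ± 0.18 at 24 h, 4.63 ± 0.40 before and 4.69 ± 0.45 after rupture (n = 4 each). All 5 groups overlapped, and no neighbours in the order of means, which had unruptured follicles lowest and 0 h follicles highest, passed the test. The change at 12 h against 0 h was -0.26 ± 0.28 (adjusted p = 0.663), with a 95% interval of -0.84 to 0.32. Between ruptured and unruptured follicles it was 0.06 ± 0.30 (adjusted p = 0.948), with an interval of -0.58 to 0.69. A change in LIFR of the size seen in IL6ST thus lay outside both intervals, though at this dim level the array may understate a change.

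IL6R, the receptor chain for IL6, took another course. Its brighter probe set was at 5.95 to 6.65 (median 6.23) at 0 h, at 6.57, 6.89, 7.12 and 6.39 at 12 h, at 7.40, 6.97, 6.60 and 7.35 at 24 h, at 7.39, 6.56, 7.09 and 7.02 in unruptured follicles and at 6.76, 6.40, 5.97 and 6.56 in ruptured follicles. The highest values were in the 24 h and unruptured groups, in which, as at 0 h, LIF and IL6ST were low. Each of these groups had 1 follicle within the range of 0 h, and the ruptured and unruptured groups overlapped.

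IL6R at 24 h averaged 7.08 ± 0.37 (SD, n = 4), against 6.25 ± 0.27 at 0 h (n = 6), a log2 change of 0.83 ± 0.21 (SE, adjusted p = 0.0356). In unruptured follicles it averaged 7.01 ± 0.34, a change of 0.76 ± 0.21 against 0 h (adjusted p = 0.0443). In these comparisons IL6R was the only called gene of the 6, where 3.36% of all probe sets were called at 24 h and 4.72% in unruptured follicles. The calls ended without any 1 of 7 arrays at 24 h (adjusted p up to 0.13) and of 13 arrays in the unruptured comparison (adjusted p up to 0.151). The dimmer probe set was not called in either (0.63, adjusted p = 0.191, and 0.52, adjusted p = 0.282). With the 3′ minus 5′ difference of control transcripts, a sign of RNA quality, as a covariate it was called at 24 h against 0 h (0.83 ± 0.21, adjusted p = 0.0316) and in the F test (adjusted p = 0.027). Of markers of other cells, 2 of 8 macrophage markers (AIF1 and LYZ) were higher at 24 h than at 0 h. So was 1 of 7 genes listed as neutrophil markers (FCN1 alone), and 4 of 8 granulosa markers (INHA, INHBA, CYP19A1 and NR5A2) were lower. The summed intensities at 24 h and at 0 h were 2219 to 4761 and 1241 to 2298 for macrophage markers, 228 to 334 and 57 to 264 for neutrophil markers, and 6920 to 9049 and 13468 to 23836 for granulosa markers. In unruptured follicles against 0 h, LYZ and FCN1 were higher and 4 granulosa markers (INHBA, CYP19A1, NR5A2 and SERPINE2) lower, with sums in unruptured follicles of 2307 to 3197 for macrophage, 207 to 387 for neutrophil and 6598 to 9518 for granulosa markers. The order of means was 0 h, ruptured, 12 h, unruptured and 24 h, and no neighbours in it passed the test (adjusted p = 0.68, 0.58, 0.558 and 0.99). Ruptured follicles averaged 6.42 ± 0.34, a change of -0.59 ± 0.23 against unruptured follicles that did not pass (adjusted p = 0.124).

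SOCS3, the inhibitor, was dim and variable at 0 h, where its follicles ran from -0.19 to 4.01 (median 3.03). At 12 h it was at 5.27, 4.83, 4.90 and 4.28, at 24 h at 4.06, 3.08, 3.39 and 3.16, in unruptured follicles at 1.16, 3.23, 1.14 and 3.87, and in ruptured follicles at 5.46, 5.95, 6.36 and 5.05. The 12 h and ruptured follicles were above all other follicles. Replicate 4 of 12 h, the highest of its group in LIF and IL6ST, was the lowest of its group in SOCS3.

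At 12 h SOCS3 averaged 4.82 ± 0.41 (SD, n = 4), against 2.33 ± 1.67 at 0 h (n = 6), a log2 change of 2.49 ± 0.70 (SE, adjusted p = 0.0309). Leaving out replicate 3 or 4 of 0 h, or any of replicates 1 to 3 of 12 h, ended that call (adjusted p of 0.057 to 0.088). The groups at 24 h and 12 h did not overlap either, but the change of -1.40 ± 0.77 did not pass (adjusted p = 0.343). In ruptured follicles the mean was 5.71 ± 0.57, against 2.35 ± 1.41 in unruptured ones, a change of 3.36 ± 0.77 (adjusted p = 0.00892) that held when any 1 array was left out (adjusted p up to 0.0368). With 16 added before the logarithm, the SOCS3 changes were 0.95 ± 0.20 at 12 h (adjusted p = 0.00351) and 1.61 ± 0.22 after rupture (adjusted p = 6.04e-05). On that scale the lower level at 24 h against 12 h passed too (-0.73 ± 0.22, adjusted p = 0.048), as did ruptured follicles against 24 h (1.36 ± 0.22, adjusted p = 0.000372). Without the offset the SOCS3 means had the order of those of IL6ST, and no neighbours passed the test (adjusted p = 0.994, 0.882, 0.343 and 0.668).

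By comparison, with each gene counted by its brighter or only probe set, 3 of the 6 genes rose in the first 12 h (LIF, IL6ST and SOCS3). Of all probe sets 9.33% were called there, 2259 of them higher. From 12 h to 24 h, 2 fell (LIF and IL6ST) against 6.88% of probe sets called. Between 24 h and unruptured 36 h follicles none of the 6 was called by limma, where 0.00379% of all probe sets (2) were called and 3298 had an unadjusted p under 0.05. The 6 changes there ran between -1.07 ± 0.77 (SOCS3, adjusted p = 0.882) and 0.83 ± 0.52 (IL6, adjusted p = 0.854). After rupture the same 3 genes that had risen by 12 h were higher than in unruptured follicles, where 9.82% of probe sets were called. Over the 6 genes the median change was 1.43 at 12 h, -1.32 at 24 h against 12 h, and 1.65 after rupture, beside medians over all probe sets of 0.00, 0.00 and -0.03. With only the 2 groups of a comparison in the fit, the falls of LIF and IL6ST at 24 h (adjusted p = 0.131 and 0.213) and the rises of SOCS3 at 12 h (0.11) and after rupture (0.0524) did not pass, while those of LIF and IL6ST did.

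**Figure D2:**
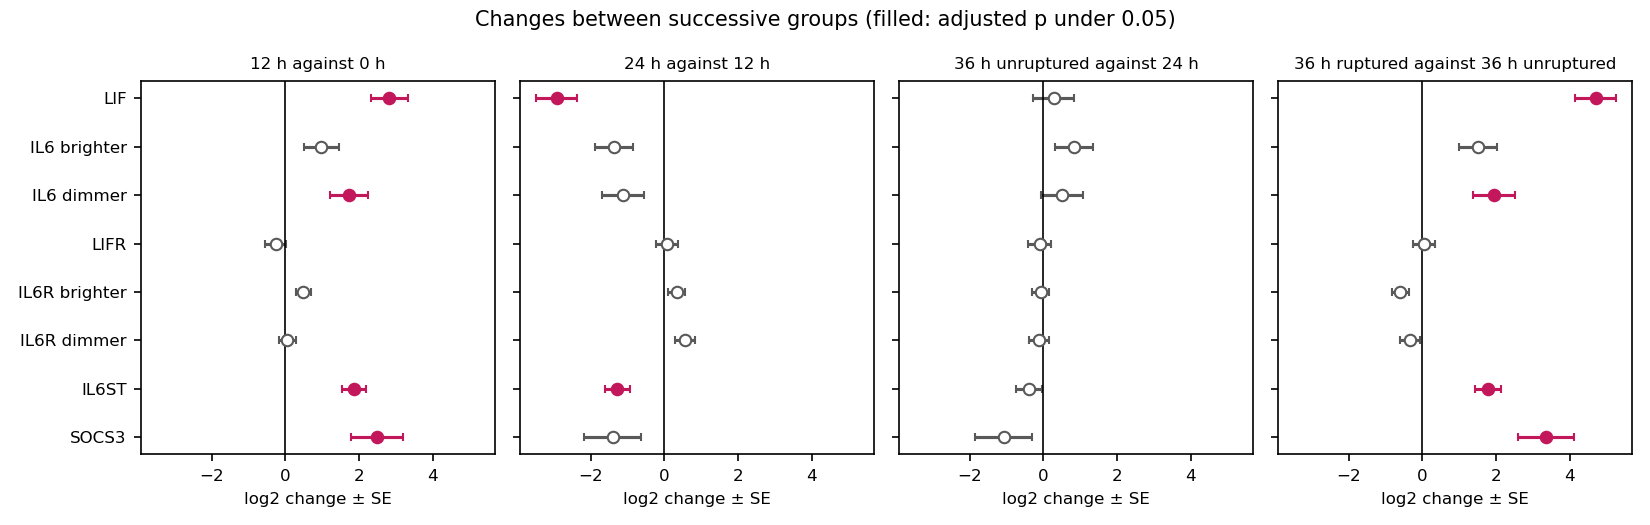
Log2 change (x axis) of each LIF and IL6 signalling probe set (rows) in the 4 comparisons of successive groups (panels), with its SE as a bar, filled where limma's adjusted p was under 0.05. LIF, IL6ST, SOCS3 and the dimmer IL6 probe set (1.73 and 1.94) were called higher at 12 h and after rupture. LIF (-2.92) and IL6ST (-1.27) were called lower at 24 h, and no probe set was called between 24 h and unruptured follicles.

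The ruptured follicles were also set against the earlier groups. Against 0 h, 4 of the 6 genes were higher, where 15.8% of all probe sets were called: LIF by 4.90 ± 0.50 (adjusted p = 3.31e-06), SOCS3 by 3.38 ± 0.70 (adjusted p = 0.00245), IL6ST by 2.00 ± 0.32 (adjusted p = 0.000261) and IL6 as given above. Against 24 h, 3 were higher (9.31% of probe sets called): LIF by 4.99 ± 0.55 (adjusted p = 2.95e-05), the brighter IL6 probe set by 2.34 ± 0.52 (adjusted p = 0.00726) and IL6ST by 1.40 ± 0.35 (adjusted p = 0.0156, or 0.0621 without ruptured replicate 5). Against 12 h none of the 6 was called (1.6% of probe sets called, 7714 with an unadjusted p under 0.05), with LIF as given above. Unruptured follicles were lower than 12 h follicles in 3 of the 6 (9.82% of probe sets called): LIF at -2.64 ± 0.55 (adjusted p = 0.0043), IL6ST at -1.66 ± 0.35 (adjusted p = 0.00476) and SOCS3 at -2.47 ± 0.77 (adjusted p = 0.0491). The last of these was lost in 18 of 22 fits that left out 1 array. These comparisons share arrays with the ones above and with each other.

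The rise at 12 h and that after rupture compare means of different arrays. Both calls rest on the same estimate of each probe set's spread, taken from the fit of all arrays. The calls in these comparisons are therefore not independent of each other. By their brighter or only probe sets, the 3 genes called higher at 12 h were the 3 called higher after rupture. The dimmer IL6 probe set was called higher in both as well. Over all probe sets, 1020 were higher in both, which was 45.2% of those higher at 12 h and 40% of those higher after rupture.

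The wider IL6 family was followed through lists of ligands, receptors, signal carriers, inhibitors and response genes, each gene by its brightest probe set. The lists include the 6 genes above, so their counts and medians are not separate from the results for those genes. The background for their counts is the share of all probe sets called, 9.33% at 12 h, 6.88% at 24 h against 12 h and 9.82% after rupture. Of 8 measured ligands, 2 rose at 12 h, LIF and CLCF1, a ligand of the ciliary neurotrophic factor receptor, and the median change was 0.37. CLCF1 averaged 5.12 ± 0.22 (SD, n = 4) at 12 h and 3.89 ± 0.46 at 0 h (n = 6), a change of 1.23 ± 0.26 (SE, adjusted p = 0.00489). In ruptured follicles it averaged 7.37 ± 0.66, against 5.03 ± 0.15 in unruptured ones (2.34 ± 0.28, adjusted p = 6.61e-05). CLCF1 was also called higher in unruptured follicles than at 0 h. The gene for cardiotrophin 1, CTF1, fell after rupture, with -0.92 ± 0.20 (adjusted p = 0.0055). OSM, CNTF, IL27 and EBI3 were not called in any of the 4 successive comparisons. At 0 h OSM (3.14), CNTF (4.04) and IL27 (3.43) lay under the array median.

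Among the 8 receptor genes, IL6ST and OSMR rose at 12 h and IL11RA fell, with a median of 0.32. OSMR codes for the chain that pairs with gp130 to bind oncostatin M. It averaged 11.97 ± 0.49 (SD, n = 4) at 12 h and 9.60 ± 0.21 at 0 h (n = 6), a change of 2.37 ± 0.20 (SE, adjusted p = 1.71e-06). At 24 h it was lower than at 12 h (-1.17 ± 0.22, adjusted p = 0.00302) but still higher than at 0 h (1.21 ± 0.20, adjusted p = 0.00183). OSMR was also called higher in unruptured follicles than at 0 h. In ruptured follicles OSMR averaged 12.48 ± 0.21, against 10.38 ± 0.12 in unruptured ones (2.10 ± 0.22, adjusted p = 1.92e-05). IL11RA, the receptor of interleukin 11, moved the other way, by -1.14 ± 0.13 at 12 h (adjusted p = 2.46e-05) and -1.01 ± 0.14 after rupture (adjusted p = 0.000195). CNTFR, IL27RA and IL31RA were called in none of the 4 successive comparisons, and CNTFR (4.51) and IL31RA (1.65) lay under the array median at 0 h.

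STAT3 was the 1 gene of 8 JAKs and STATs called at 12 h, a share near the background of 9.33%, and the list's median change was 0.17. It averaged 8.57 ± 0.21 (SD, n = 4), against 6.94 ± 0.36 at 0 h (n = 6), a change of 1.64 ± 0.20 (SE, adjusted p = 7.6e-05). At 24 h STAT3 fell by 0.90 ± 0.22 (adjusted p = 0.0198) while the kinase gene JAK2 rose by 0.84 ± 0.21 (adjusted p = 0.0208). After rupture STAT3 was again the 1 called gene (list median -0.29), at 8.81 ± 0.33 in ruptured and 7.47 ± 0.21 in unruptured follicles (1.34 ± 0.22, adjusted p = 0.000863).

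Of 14 inhibitors of the signal, 4 rose and 1 fell at 12 h (median 0.26), and 3 rose and 2 fell after rupture (median 0.17). Beside SOCS3, the phosphatase gene PTPN1 rose in both, by 0.55 ± 0.10 (adjusted p = 0.00164) and 0.80 ± 0.11 (adjusted p = 0.000176), as did SOCS5, by 0.34 ± 0.09 (adjusted p = 0.0235) and 0.34 ± 0.10 (adjusted p = 0.0377). PIAS1 was 0.69 ± 0.13 higher at 24 h than at 12 h (adjusted p = 0.00412) and -0.94 ± 0.13 after rupture (adjusted p = 0.000248). PTPRC, which rose at 12 h, codes for CD45, a phosphatase found on all leukocytes (1.68 ± 0.37, adjusted p = 0.00677). ADAM10, the only measured protease of those that shed receptors, was not called.

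**Figure D3:**
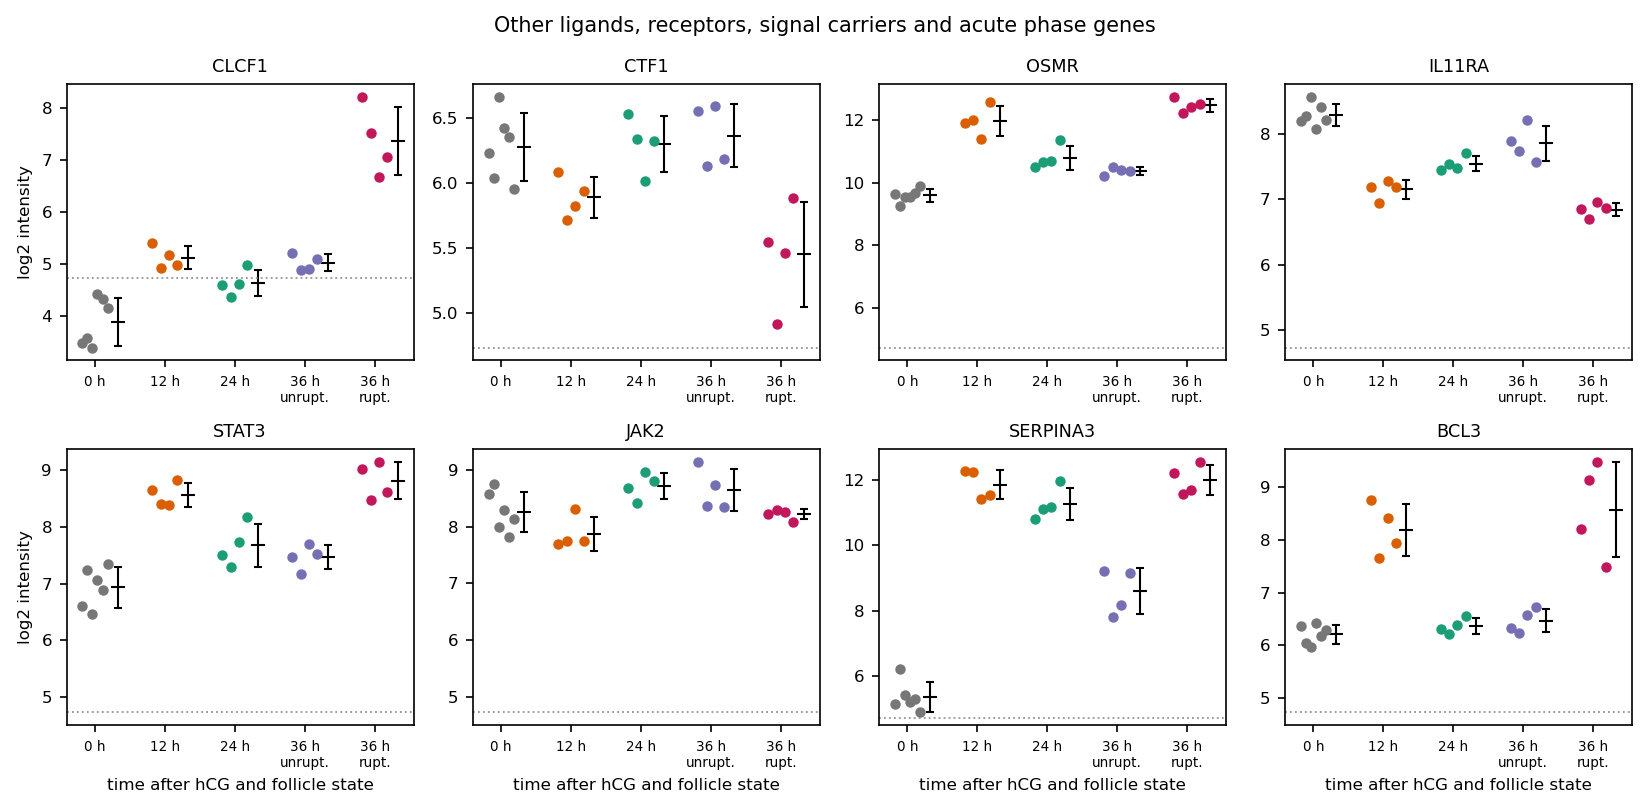
Log2 intensity (y axis) of 8 further genes of the pathway in the 5 groups (x axis), with 1 point per follicle, the group mean and SD as a bar, and the median of all probe sets (4.73) as a dotted line where in range. CLCF1, OSMR, STAT3, SERPINA3 and BCL3 were higher at 12 h than at 0 h and higher in ruptured than in unruptured follicles, and IL11RA was lower in both comparisons.

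Of 33 measured acute phase and STAT3 target genes, 12 rose and none fell at 12 h, with a median change of 0.58. They included SERPINA3, which codes for the acute phase protein alpha-1-antichymotrypsin, with 6.48 ± 0.32 (adjusted p = 2.58e-09), the transcription factor gene CEBPD with 2.07 ± 0.31 (adjusted p = 0.000336) and BCL3, an NF-kB cofactor gene, with 1.98 ± 0.29 (adjusted p = 0.000316). At 24 h 6 fell, and BCL3 (-1.83 ± 0.32, adjusted p = 0.00196) and the AP-1 gene JUNB (-1.83 ± 0.44, adjusted p = 0.015) were the most changed. SERPINA3 was not among them: it averaged 11.26 ± 0.49 (SD, n = 4) at 24 h and 11.86 ± 0.45 at 12 h, and fell later, by 2.67 ± 0.36 (SE, adjusted p = 0.0255) in unruptured 36 h follicles against 24 h.

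After rupture 8 of the 33 rose and none fell (median 0.20), led by SERPINA3 (3.41 ± 0.36, adjusted p = 1.94e-05), JUNB (2.54 ± 0.44, adjusted p = 0.00106) and BCL3 (2.10 ± 0.32, adjusted p = 0.000386). Of these, 7 (BCL3, CEBPB, JUNB, LRG1, PIM1, SERPINA3 and STAT3) were also higher at 12 h, 58.3% of the genes higher at 12 h and 87.5% of those higher after rupture. Over all probe sets these shares were 45.2% and 40%. Other acute phase genes of the liver, CRP, HP, SAA1 and the fibrinogen genes FGA, FGB and FGG, were called in none of the 4 successive comparisons. At 0 h all of these but HP averaged 2.15 to 3.82, under the array median of 4.73. HP varied widely, with an SE of 0.99 for its change at 12 h. The lack of calls therefore does not show that these genes stayed level.

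NF-kB is another known activator of IL6 transcription. Of 19 measured genes of NF-kB and its regulators, 6 rose and none fell at 12 h (median 0.28). The largest changes were in NFKBIZ (1.63 ± 0.34, adjusted p = 0.00505), IL1RN, the interleukin 1 receptor antagonist (1.36 ± 0.30, adjusted p = 0.00766), and RELB (0.89 ± 0.17, adjusted p = 0.00292). RELB and NFKBIE fell at 24 h, and 5 of the 19 rose after rupture (median 0.17), among them IL1RN (1.65 ± 0.33, adjusted p = 0.00366) and NFKBIE (1.02 ± 0.22, adjusted p = 0.00598). The lists overlap in STAT3 and were read by counts only.

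**Figure D4:**
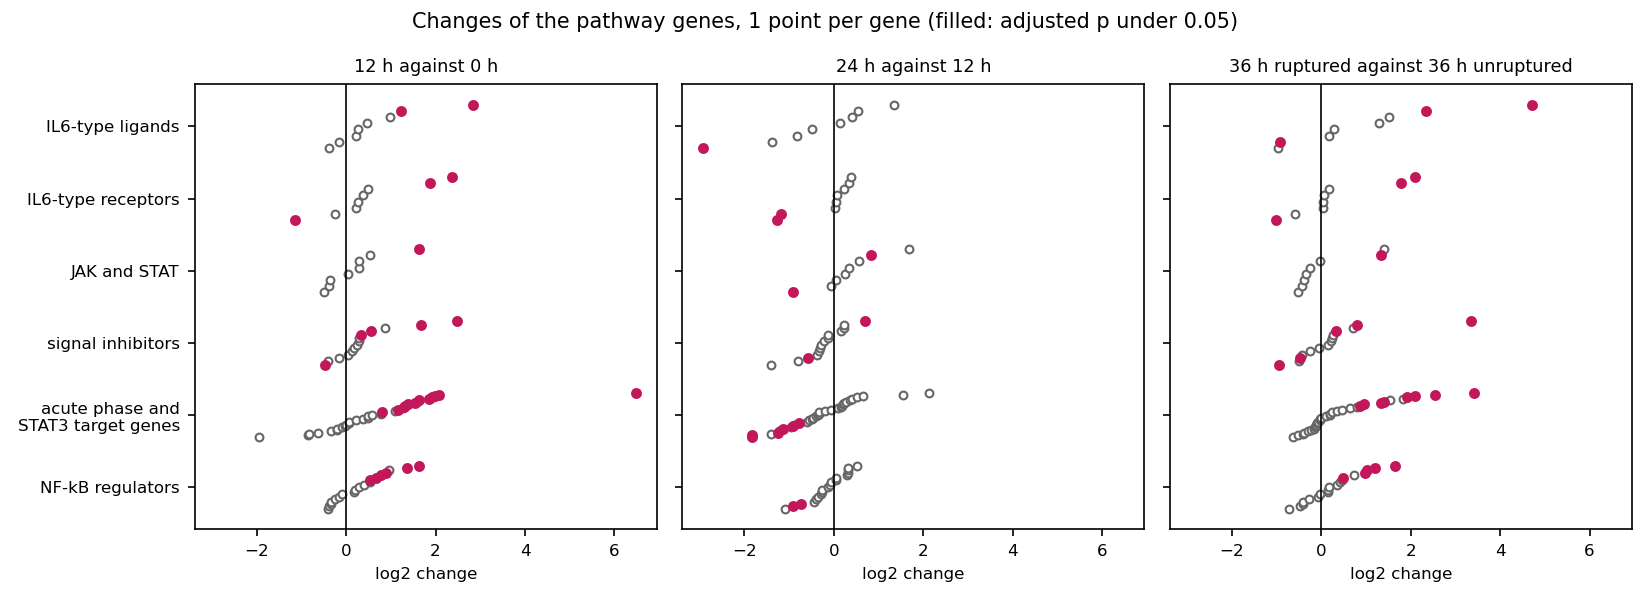
Log2 change (x axis) of every measured gene of 6 pathway lists (rows) in 3 comparisons (panels), with 1 point per gene, filled where limma's adjusted p was under 0.05. In the acute phase and STAT3 target list 12 of 33 genes were called higher at 12 h, 6 were called lower at 24 h and 8 were called higher in ruptured against unruptured follicles.

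The genes whose levels followed each transcript most closely over the 22 arrays were taken from brighter probe sets (mean log2 of at least 6), as a description of profiles that share the same 5 groups. For LIF they were DIRAS3, a RAS-related gene (r = 0.96), VPS9D1, ETF1, the ephrin receptor gene EPHA2 (r = 0.95 each) and the phosphate transporter gene SLC20A1 (r = 0.94). DIRAS3 had group means of 5.25 at 0 h, 8.10 at 12 h, 5.59 at 24 h, 5.29 before rupture and 9.35 after it. For IL6ST they were CDK2AP1 (r = 0.99), DNAJC1 (r = 0.95), the growth factor gene BMP2, ZNRF2 and a dimmer probe set of OSMR (r = 0.94 each). CDK2AP1 had means of 7.57, 9.47, 8.24, 7.78 and 9.51 in the same order of groups.

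For SOCS3 the closest genes were SH3RF1 (r = 0.88), PLSCR1 (r = 0.87), PYROXD1, ARRDC3 (r = 0.85 each) and RCAN1 (r = 0.84). For IL6 the r was 0.81 to 0.82 for FBXO28, CSRNP1, the kinase gene SIK1, HOMER1 and IFRD1, all with their highest mean after rupture. IL6R was followed by LRIG1 (r = 0.85), NCK1 (r = 0.83), SNX9, ZCCHC24 and SLC31A2 (r = 0.81 each), and LRIG1 had means of 8.32 at 0 h, 8.51 at 12 h, 9.12 at 24 h, 9.12 before and 8.37 after rupture.

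Leukocytes can make LIF and IL6 and carry their receptors, so markers of other cell types were read beside these results. Of all probe sets, 9.33% were called at 12 h against 0 h, 9.82% between ruptured and unruptured follicles and 15.8% for ruptured follicles against 0 h. At 12 h, where LIF, IL6ST and SOCS3 rose, 4 of 8 measured macrophage and monocyte markers also rose (CD14, AIF1, TYROBP and LYZ) with a median change of 1.13, and their summed intensity was 1868 to 5399 at 12 h and 1241 to 2298 at 0 h. Of 7 genes listed as neutrophil markers only FCN1 rose and 6 were not called, with sums of 166 to 257 at 12 h and 57 to 264 at 0 h. Which cells carried FCN1 was not tested. None of 6 lymphocyte markers was called (140 to 339 at 12 h and 126 to 238 at 0 h). Between ruptured and unruptured follicles, where the 3 genes were higher again, none of the macrophage, neutrophil or lymphocyte markers was called. The macrophage sums were 2026 to 3488 in ruptured and 2307 to 3197 in unruptured follicles, with a median change of -0.05, the neutrophil sums 226 to 567 in ruptured and 207 to 387 in unruptured follicles, and the lymphocyte sums 157 to 334 in ruptured and 203 to 388 in unruptured follicles. No intensity was 0, and 4 of the 7 neutrophil and 4 of the 6 lymphocyte markers had means under the array median in both 36 h groups. CD3D, CD3E, CD3G, CD2 and LCK had no probe set with that gene as its only symbol. Against 0 h, where LIF, IL6, IL6ST and SOCS3 were higher in ruptured follicles, 4 of the 7 neutrophil markers were higher too (S100A8, S100A9, FPR1 and FCN1, median change 1.89), with sums of 226 to 567 in ruptured and 57 to 264 in 0 h follicles. No macrophage marker was called there (median 0.39, sums of 2026 to 3488 in ruptured and 1241 to 2298 in 0 h follicles). FPR1 was also higher in ruptured than in 24 h follicles.

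Granulosa and other markers were read in the same way, beside 9.33% of all probe sets called at 12 h and 9.82% after rupture. At 12 h HSD17B1 and SERPINE2 fell (2 of 8, median change -1.29), with sums of 8406 to 19858 at 12 h and 13468 to 23836 at 0 h. From 12 h to 24 h, where LIF and IL6ST fell, 2 of 8 were lower (median -0.81), beside 6.88% of all probe sets called. They were INHBA (-2.38 ± 0.46, adjusted p = 0.00374) and CYP19A1 (-3.16 ± 0.66, adjusted p = 0.00637), and the sums at 24 h were 6920 to 9049. No macrophage, neutrophil, lymphocyte, endothelial or theca and stroma marker was called from 12 h to 24 h. After rupture INHBA rose (1 of 8, a share near that of all probe sets, median 1.14). The granulosa sums were 10482 to 15270 in ruptured and 6598 to 9518 in unruptured follicles. Of 7 endothelial markers TEK was lower after rupture (sums of 1994 to 2878 in ruptured and 1972 to 2726 in unruptured follicles). Of 6 theca and stroma markers TAGLN rose at 12 h (0.50 ± 0.12, adjusted p = 0.014), while the list's median change was -0.06. Their sums were 25768 to 29664 at 12 h and 22309 to 33044 at 0 h, and none of the 6 was called after rupture. The theca and stroma sums were then 27220 to 35002 in ruptured and 27638 to 34053 in unruptured follicles. Of 6 oocyte markers ZP4 was lower at 24 h than at 12 h (-0.69 ± 0.15, adjusted p = 0.00946), where the list's median change was -0.04. It was higher after rupture (0.59 ± 0.15, adjusted p = 0.0169), the highest change of the list, whose median there was -0.64. The oocyte sums were 445 to 858 in ruptured and 581 to 943 in unruptured follicles. The 3′ minus 5′ difference of control transcripts averaged 0.268 ± 0.033 (SD, n = 4) after and 0.323 ± 0.039 before rupture, and 0.347 ± 0.091 at 12 h against 0.308 ± 0.053 at 0 h (n = 6). The part of marker levels in the results was not tested. With the 3′ minus 5′ difference as a covariate, the SOCS3 rise at 12 h had an adjusted p of 0.0514 and the dimmer IL6 probe set's rise after rupture one of 0.0958, while the calls for LIF and IL6ST in these 2 comparisons held.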

How the data were processed

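Per the labels' protocols, total RNA of each frozen follicle was labelled in the Affymetrix one-cycle protocol from an oligo-dT primer, so signal leans to the 3′ end of transcripts. The authors deposited an intensity for each probe set on each array, made with RMA per the submitters' processing notes. RMA corrects background, normalizes arrays to each other and summarises the probes of a set. No version of it is given in the sources used. Its output is usually on a log2 scale, but these intensities ran from 0.0361 to 15137, so they were taken as linear and log2 was computed here. RMA's normalization makes the arrays alike in overall distribution, so a shift common to all genes cannot be seen. No scan date or batch was given.

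The 99 control probe sets were left out of 52865, and 52766 were tested. Of these, 24956 had 1 gene symbol in the platform annotation, 361 several and 27449 none. Coordinates and sequences were not used here. Sample titles gave the groups and the replicate numbers. All 22 arrays were fitted in 1 model of 5 group means with limma 3.58.1 (lmFit and eBayes) in R 4.3.3. Contrasts were two-sided, adjusted by Benjamini-Hochberg over all tested probe sets, and intervals were at 95%. The steps were tested on simulated data. No 2 arrays held identical values. Same-numbered follicles of the 0 h, 12 h, 24 h and unruptured groups did not deviate together (r of -0.18 to 0.17 over 24 pairs), so the numbers were not used as pairs.

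The genes of the report and the lists were chosen with earlier results of these data known. A gene with several probe sets is led by the one with the highest mean. The rule for names took every LIF and IL6 signalling probe set, up to 3 called genes per pathway list and successive comparison with the largest change, and the 5 genes closest in profile to each transcript that passed the F test. SOCS5 outside the 24 h comparison, the list genes named as not called and those named without values were added after their values were seen. Alternatives were the fit on the 2 groups alone, an offset of 16, a filter on dim probe sets, quantile normalization, median centring, array weights, eBayes with trend and robust settings, the 3′ minus 5′ covariate, a replicate block, the mean of a gene's probe sets, and each array left out.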

Additional observations from a re-analysis of the deposited data

Results flagged for a closer look

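Within single groups, 2 values lay far from the others by Dixon's test, among 40 sets of 1 probe set in 1 group that were examined, and chance flags about 1 in 20 such sets. LIF in 0 h replicate 3 was at a log2 intensity of 3.60, with the nearest of the other 5 follicles at 4.28 and the farthest at 4.62. The dimmer IL6 probe set in 0 h replicate 6 was at 0.42, with the nearest at 2.33 and the farthest at 3.24. Both values were low levels under the array median of 4.73. Without replicate 6 of 0 h, the change of the dimmer IL6 probe set at 12 h against 0 h was 1.33 ± 0.43 (SE, adjusted p = 0.0675). LIF lost no call without replicate 3 of 0 h.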

How the results depend on the processing

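The number of the 6 genes called was compared with that under each alternative, and only the larger moves are listed. Smaller losses and gains are not. SOCS3, for example, lost its call at 12 h against 0 h with only the 2 groups (adjusted p = 0.11), the 3′ minus 5′ covariate (0.0514) and the replicate block (0.0855). It gained one for ruptured follicles against 24 h with the offset (0.000372). Quantile normalization and median centring of the deposited values moved none of these counts. Fitting only the 2 groups compared gave 0 calls for 24 h against 12 h (2 in the report), 0 for 24 h against 0 h (1), 0 for unruptured follicles against 0 h (1) and 0 for unruptured follicles against 12 h (3), with fewer arrays behind each estimate of the spread. Leaving out dim probe sets, which removes IL6 and SOCS3, gave 3 genes in the F test (5) and 2 for ruptured follicles against 0 h (4). Ruptured follicles against 12 h went to 1 call (LIF, 0 in the report) with that filter, with an offset of 16, with array weights, and with trend and robust settings. The mean of a gene's probe sets gave 0 for 24 h and for unruptured follicles against 0 h (1 each). With the replicate number as a replicate block, 24 h against 12 h had 1 call (2), and 24 h and unruptured follicles against 0 h had 0 (1 each), and the numbers are not shown to pair the follicles.

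Leaving out each array in turn gave 4 to 5 genes in the F test, 2 to 3 at 12 h against 0 h, 1 to 2 at 24 h against 12 h, 0 to 0 for unruptured follicles against 24 h, 3 to 4 for ruptured against unruptured follicles, 0 to 1 for 24 h and for unruptured follicles against 0 h, 4 to 4 for ruptured follicles against 0 h, 2 to 3 for unruptured follicles against 12 h, 0 to 1 for ruptured follicles against 12 h and 2 to 4 against 24 h. These fits gave 1936 values, with F tests and values not called in the report among them. Of these, 68 lost and 4 gained a call, and 0 were called in the opposite direction. Of 777 under the other alternatives, 28 lost and 16 gained a call, and 0 were called in the opposite direction. Changes of sign without a call were not counted. The cause of the lost calls was not tested.

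Over all probe sets, calls also depended on the fit, and again only the larger moves are listed. With only the 2 groups compared they were 2740 at 12 h against 0 h (4922), 189 at 24 h against 12 h (3628), 0 for unruptured follicles against 24 h (2), 1318 for ruptured against unruptured (5181), 1082 and 1365 for 24 h and unruptured follicles against 0 h (1771 and 2492), 1198 for unruptured follicles against 12 h (5181), and 9 and 1271 for ruptured follicles against 12 h and 24 h (845 and 4911). With the replicate block they were 2006 at 12 h against 0 h, 1747 at 24 h against 12 h, 0 for unruptured follicles against 24 h, 440 and 624 for 24 h and unruptured follicles against 0 h, and 3160 for unruptured follicles against 12 h. The mean of a gene's probe sets tested fewer features and gave 6913 in the F test (10626), 3129, 2122, 0 and 3306 in the 4 successive comparisons, 1063 and 1401 for 24 h and unruptured follicles against 0 h, 3219 for unruptured follicles against 12 h, and 437 and 3161 for ruptured follicles against 12 h and 24 h. Unruptured follicles against 24 h had 4 calls with the offset and with dim probe sets left out, 10 with trend and robust settings and 0 with the 3′ minus 5′ covariate. Ruptured follicles against 12 h had 1457, 2060, 1661 and 432 under those 4 settings. Without dim probe sets, 24 h and unruptured follicles against 0 h had 3070 and 3945.

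With each array left out, these counts ran from 9351 to 10434 in the F test, 3502 to 5021 at 12 h against 0 h, 2199 to 3761 at 24 h against 12 h (lowest without 24 h replicate 1), 0 to 5 for unruptured follicles against 24 h and 3590 to 5357 for ruptured against unruptured follicles. For 24 h against 0 h they ran from 959 (without 24 h replicate 4) to 1839, for unruptured follicles against 0 h from 1423 (without unruptured replicate 3) to 2559, for ruptured follicles against 0 h from 6975 to 8529, and for unruptured follicles against 12 h from 3721 to 5289. Ruptured follicles against 12 h had 474 (without 12 h replicate 1) to 1022 and against 24 h 3379 to 5074.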
